A study of Homo sapiens with 9 samples.

Results

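Protocadherins are the largest branch of the cadherin superfamily, and 66 protein-coding genes whose symbol begins with PCDH were followed here among the 58676 genes of one count table. The members were taken by symbol and biotype alone. Of these, 53 lie in the 3 clusters of chromosome 5 (15 alpha, 16 beta and 22 gamma genes), and 13 are non-clustered genes elsewhere. At least 10 counts in at least 3 libraries were reached by 46 members, comprising 12 alpha, 13 beta, 15 gamma and 6 non-clustered genes, and the same 46 passed the filter of the test.

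Poly(A)-selected RNA was sequenced from OVCA433, an established line of human ovarian serous adenocarcinoma cells, as 3 libraries in each of 3 groups. One group carried a lentiviral control vector, and the others carried a lentiviral shRNA against MPZL3, a predicted cell adhesion molecule of the immunoglobulin superfamily, as shRNA#1 or shRNA#3. All groups went through transduction and puromycin selection, and the study describes the libraries as biological replicates marked A, B and C. The study calls the control an empty vector in one place and a scrambled hairpin in another, so whether it expressed a hairpin is uncertain. The comparisons ask which protocadherin transcripts differed after the loss of MPZL3, and whether the hairpins differed from each other.

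Cadherins are calcium-dependent adhesion proteins of the cell surface. Clustered protocadherins are known from neurons, where each cell expresses a small combination of isoforms from alternative promoters, and contacts between cells of matching combinations underlie self-recognition of neurites. In the alpha and gamma clusters each variable first exon is spliced to constant exons that the whole cluster shares, whereas beta genes are single-exon genes without constant exons. The last genes of the alpha and gamma clusters, AC1, AC2, GC3, GC4 and GC5, are termed C-type and are regulated apart from the others. Non-clustered protocadherins, many of which belong to the delta groups, have promoters of their own, and the tails of several delta members bind cytoskeletal and signalling proteins.

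Library totals ranged from 16850854 to 23890191 counts, and protocadherin genes took 0.0347% to 0.0364% of the counts in control and 0.024% to 0.0283% in the 6 knockdown libraries. MPZL3 itself (ENSG00000160588, GRCh38 chromosome 11, 118226690 to 118252350) was at 15.6, 21.9 and 21 CPM (counts per 1000000, scaled with the TMM factors of edgeR) in control, 1.87, 1.98 and 1.8 CPM with shRNA#1 and 1.94, 0.988 and 1.8 CPM with shRNA#3. Of the 8 listed epithelial markers of serous ovarian cells, 7 were tested, 5 were called lower in knockdown (CDH1, EPCAM, KRT8, KRT18 and MUC16) and PAX8 was called higher, with a summed level of 10200 to 12300 CPM in control, 5220 to 6670 CPM with shRNA#1 and 5160 to 5780 CPM with shRNA#3. WT1 had 0 counts in every library. Of 8 fibroblast and stromal markers, 5 were tested and 4 were called higher in the pooled comparison (COL1A1, COL1A2, COL6A3 and LUM), the summed level of the list going from 76.3 to 94.8 CPM in control to 1180 to 1680 CPM with shRNA#1 and 1720 to 2380 CPM with shRNA#3, while DCN had 0 counts in every library. The fifth, PDPN, moved in opposite directions, from 12.6 ± 1.2 CPM in control to 0.27 ± 0.175 with shRNA#1 (called lower, adjusted p = 1.23e-09) and 78.1 ± 5.14 with shRNA#3 (called higher, adjusted p = 1.04e-08). With shRNA#3, 4 of the 5 tested markers were called higher, PDPN among them. The 1 left uncalled with that hairpin was therefore among the 4 genes named before it. Of 10 neuronal markers, 5 were tested, with SYT1, SNAP25 and RBFOX3 called higher and MAP2 lower, a summed level of 84.6 to 128 CPM in control, 34.2 to 37.1 CPM with shRNA#1 and 51.8 to 70.9 CPM with shRNA#3, and DCX, STMN2, ELAVL3 and NEFL at 3 counts or fewer in every library. Of 7 leukocyte and endothelial markers, 3 were tested and CDH5 was called higher, with sums of 1.14 to 1.55, 2.52 to 4.59 and 4.24 to 6.21 CPM in control, shRNA#1 and shRNA#3. These markers moved with the groups, and their part in the protocadherin values was not tested. In bulk RNA, fewer cells expressing a gene and less RNA of it per cell cannot be told apart.

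Calls required at least a 2-fold difference and an adjusted p-value under 0.05 (edgeR's quasi-likelihood test, Benjamini-Hochberg over 15975 genes), and all adjusted p-values below are from that test unless another is named. With both hairpins as 1 knockdown arm of 6 libraries, 11 of the 46 tested protocadherins were called, which is 23.9%, beside 14.7% of all genes tested. Higher calls numbered 8, beside 7.26% of all genes, and lower calls 3, beside 7.4%. By class, 0 of 12 alpha, 1 of 13 beta, 6 of 15 gamma and 4 of 6 non-clustered genes were called. Against control, shRNA#1 gave 11 calls (8 higher and 3 lower), beside a background of 16.3% in either direction, 7.76% higher and 8.55% lower. With shRNA#3 there were 15 calls (9 higher and 6 lower), beside 15.3%, 7.46% and 7.83%. Between the hairpins, 2 members were called, both lower with shRNA#3, beside 3.93% of all genes in either direction, 2.22% higher and 1.72% lower. The comparisons of each hairpin with control used the same control libraries, so their values are given side by side and not as separate evidence.

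Some members passed the filter through 1 group, so counts over tested members describe those that passed and not the 66. There were 9 tested members with 10 counts in all 3 libraries of 1 group and no other, and PCDHGC4 was under 10 counts in every control library. Under 10 counts in at least 2 control libraries were 11 tested members, among them PCDHGA10, PCDHGA11 and PCDHGC4. Among the 29 tested members that averaged at least 1 CPM over all 9 libraries, 8 were called in the pooled comparison. That cut also admits genes under 1 CPM in control that were higher in knockdown, such as PCDHGA10 and PCDHB8. The share of all genes called at that cut was not computed. The remaining 20 members were not tested, of which 5 stayed at 3 counts or fewer in every library, 2 of them at 0. Just outside the count rule, and named after its values were seen, PCDH11X had 7, 11 and 10 counts with shRNA#3, 0 in each shRNA#1 library, and 1, 1 and 0 in control. Just inside it, PCDHA8 reached 10 counts in 3 libraries without a call (pooled log2 fold change 0.11 ± 0.752, adjusted p = 0.927).

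**Figure D1:**
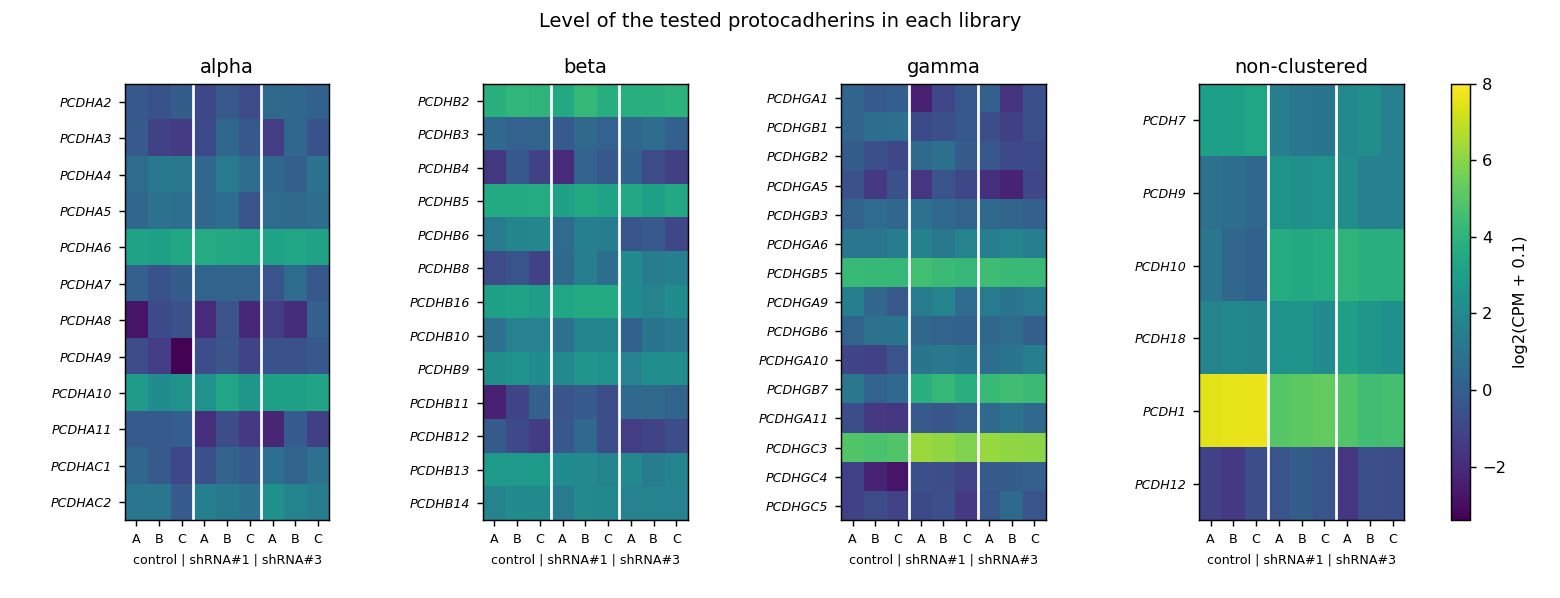
Level of each tested protocadherin in each library as log2(CPM + 0.1), by class and in chromosome order, with columns for libraries A, B and C of control, shRNA#1 and shRNA#3. PCDH1 is the brightest row in control, at 178 to 206 CPM, and PCDHGC3 the brightest of the gamma rows in every library.

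Levels of different genes were compared per kilobase of exon that overlaps no other annotated gene, since constant exons are shared. In control, PCDH1 was highest at 32.5 ± 2.36 CPM per kilobase (SD, n = 3), followed by PCDHGC3 at 8.74 ± 0.65, PCDHGB5 at 6.99 ± 0.136, PCDHB2 at 4.59 ± 0.513 and PCDHB5 at 4.08 ± 0.104. PCDHB2 and PCDHB5 lay within each other's spread, and on this length the steps above them exceeded it. By full exonic length, shared exons included, PCDHB2 at 3.9 ± 0.436 and PCDHGB5 at 3.85 ± 0.0751 could not be ordered in control. PCDHA6, at 2.86 ± 0.308 CPM per kilobase, was the highest alpha gene. In knockdown the order of the top genes changed. PCDHGC3 came first, at a mean of 20.8 CPM per kilobase with shRNA#1 and 21.4 with shRNA#3, well above the rest. With shRNA#1, PCDHGB5 followed at 7.74 ± 1.02, PCDH1 at 5.97 ± 0.588 and PCDHGB7 at 5.55 ± 0.898, and the last 2 lay within each other's spread. With shRNA#3, PCDHGB5 at 7.64 ± 0.463 and PCDHGB7 at 7.63 ± 0.616 could not be ordered, and PCDH1 (4.37 ± 0.586) and PCDHB2 (4.16 ± 0.247) lay within each other's spread. By full exonic length, shared exons included, the mean of PCDH1 ranked 2 in both knockdown groups, at the same values, with PCDHGB5 at 4.26 ± 0.562 and 4.21 ± 0.255 and PCDHGB7 at 3.11 ± 0.504 and 4.28 ± 0.346. On that length PCDH1, PCDHGB7 and PCDHGB5 lay within each other's spread with shRNA#3 and could not be ordered.

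The non-clustered genes moved in both directions. PCDH1, a delta-1 protocadherin of epithelial cells and the entry receptor of New World hantaviruses, and PCDH7, a delta-1 protocadherin whose tail binds protein phosphatase 1, fell after knockdown. PCDH10, a delta-2 protocadherin that recruits the WAVE actin-regulatory complex and is often silenced by methylation in tumours, and PCDH9, another delta-1 member, rose.

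PCDH1 (ENSG00000156453, chromosome 5, 141853111 to 141879246, minus strand, 340.0 kb past the end of the gamma cluster) was at 178, 191 and 206 CPM in control. With shRNA#1 it was at 31.8, 35.2 and 38.7 CPM and with shRNA#3 at 29.6, 22.8 and 25 CPM. No knockdown library reached the lowest control library, and every shRNA#3 library lay below every shRNA#1 library. In the pooled comparison its log2 fold change came to -2.65 ± 0.144 (SE, adjusted p = 6.52e-08), with -2.44 ± 0.119 for shRNA#1 (adjusted p = 3.73e-09) and -2.89 ± 0.122 for shRNA#3 (adjusted p = 1.29e-09). The difference between the hairpins, -0.45 ± 0.118 on the log2 scale, had an adjusted p of 0.0247 but was under the 2-fold threshold. Mean levels were 18.4% of control with shRNA#1 and 13.5% with shRNA#3.

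PCDH10 (ENSG00000138650, chromosome 4, 133149315 to 133208606) was at 2.03, 1.19 and 1 CPM in control, 12.4, 11.3 and 12.4 CPM with shRNA#1 and 16.1, 14.3 and 13.4 CPM with shRNA#3. Every knockdown library lay above every control library, and every shRNA#3 library lay above every shRNA#1 library. Its pooled log2 fold change was 3.23 ± 0.231 (adjusted p = 6.75e-07), with 3.09 ± 0.215 for shRNA#1 and 3.37 ± 0.215 for shRNA#3, and the difference between the hairpins was 0.28 ± 0.174 (adjusted p = 0.361). PCDH9 (ENSG00000184226, chromosome 13, 66302834 to 67230445) was at 1.69, 1.54 and 1.24 CPM in control, 5.56, 4.88 and 5.36 CPM with shRNA#1 and 4.65, 2.96 and 2.95 CPM with shRNA#3. Again the control libraries were the lowest, and every shRNA#3 library lay below every shRNA#1 library. Its log2 fold change was 1.55 ± 0.272 in the pooled comparison (adjusted p = 0.000882), 1.82 ± 0.236 for shRNA#1 (adjusted p = 4.18e-05) and 1.23 ± 0.243 for shRNA#3 (adjusted p = 0.00143). Without shRNA#3 library A, the last value was 0.98 (adjusted p = 0.00674) and fell under the 2-fold threshold.

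PCDH7 (ENSG00000169851, chromosome 4, 30720415 to 31146805) was at 7.99, 8.11 and 10.1 CPM in control, 2.71, 1.98 and 1.97 CPM with shRNA#1 and 3.77, 4.66 and 2.9 CPM with shRNA#3. Every shRNA#1 library was below every shRNA#3 library, and both below control. The log2 fold change was -1.97 ± 0.219 for shRNA#1 (adjusted p = 1e-05) and -1.22 ± 0.21 for shRNA#3 (adjusted p = 0.000503), and shRNA#3 minus shRNA#1 was 0.76 ± 0.23 (adjusted p = 0.0499), under the 2-fold threshold. The 582 tested genes of chromosome 4 had a median log2 difference of 0.407 between shRNA#3 and shRNA#1, with a median of -0.403 for shRNA#1 against control and 0.043 for shRNA#3 against control. PCDH7, PCDH10 and PCDH18 lie on that chromosome, and the part of this shift in their values was not tested.

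PCDH18, a delta-2 protocadherin, was at 3.1, 3.68 and 3.39 CPM in control, 5.37, 5.49 and 4.16 CPM with shRNA#1 and 8.06, 6.14 and 4.97 CPM with shRNA#3. Although no knockdown library overlapped control, its pooled log2 fold change of 0.74 ± 0.21 (adjusted p = 0.0171) was under the 2-fold threshold. PCDH12, known from endothelial cells, ranged from 0.235 to 0.865 CPM over all libraries and was not called in any comparison, and its exons overlap those of RNF14. Besides PCDH11X, the genes PCDH8, PCDH11Y, PCDH15, PCDH17, PCDH19 and PCDH20 did not reach the count rule.

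**Figure D2:**
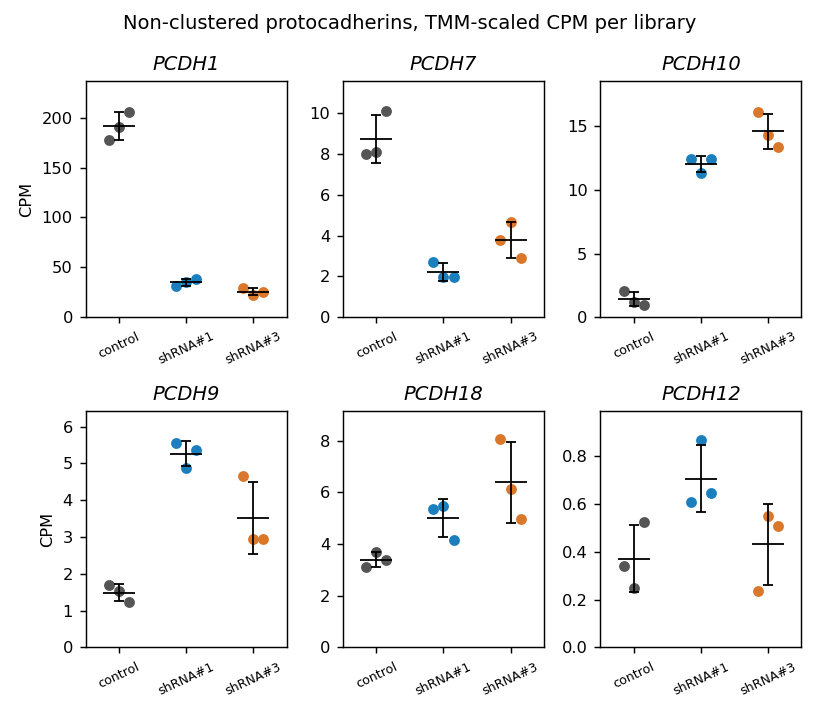
CPM of the 6 tested non-clustered protocadherins in each library (points, replicates A, B and C from left to right), with the mean and SD of each group of 3 in black and every axis starting at 0. PCDH1 and PCDH7 are lower, and PCDH10 and PCDH9 higher, in all 6 knockdown libraries than in all 3 control libraries.

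Because PCDH1 alone made up 91.7% to 92.8% of the counts of the non-clustered class in control and 43.6% to 61.2% in knockdown, the class sum followed it. The sum was 194 to 222 CPM in control, 58.6 to 63.3 CPM with shRNA#1 and 50.5 to 62.9 CPM with shRNA#3. Without PCDH1 the direction was opposite, with 14.9 to 16.6 CPM in control, 24.6 to 26.8 CPM with shRNA#1 and 25.5 to 33.3 CPM with shRNA#3.

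The gamma cluster held most of the called clustered genes. PCDHGC3, PCDHGC4, PCDHGA10, PCDHGB7 and PCDHGA11 were called higher and PCDHGB1 lower, in the pooled comparison and with each hairpin. Of these, PCDHGA10, PCDHGA11 and PCDHGC4 were under 10 counts in at least 2 control libraries. They passed the filter only through the knockdown groups, where they were higher, so their calls do not add to a count for the class. Among the 8 tested gamma genes that averaged at least 1 CPM over all 9 libraries, 3 were called in the pooled comparison. PCDHGA10 is one of them, at 0.452 CPM in control and 2.02 CPM in knockdown, so this cut does not remove the same dependence. PCDHGB1, at 1.44 CPM in control, averaged 0.833 CPM over all libraries and fell outside it. The exons shared by all 22 gamma genes hold at least 2181 bases per gene, so reads from the constant exons cannot be assigned to 1 gene, and how the counting treated them is not given in the sources used here. PCDHGA3 had 0 counts in shRNA#1 library A, where PCDHGC3 had 1687, so such reads were not credited to all gamma genes. As the rest of the treatment is unknown, whether the values below rest on the variable exons alone is uncertain. The split of reads between genes with similar variable exons is uncertain too.

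PCDHGC3 (ENSG00000240184, chromosome 5, 141475947 to 141512979), the first C-type gene of the cluster and the most abundant clustered protocadherin of these cells, was at 29.7, 26 and 29.5 CPM in control. With shRNA#1 it was at 78.8, 68.4 and 55.6 CPM and with shRNA#3 at 75.3, 68.5 and 64.6 CPM. All knockdown libraries were higher than all control libraries, and the hairpins overlapped. The log2 fold change was 1.27 ± 0.119 in the pooled comparison (adjusted p = 6.34e-06), 1.25 ± 0.129 for shRNA#1 and 1.29 ± 0.129 for shRNA#3.

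PCDHGB7 (ENSG00000254122, chromosome 5, 141417645 to 141512979) showed the largest fold change of all tested members in the pooled comparison. It was at 2.08, 1.05 and 1.29 CPM in control, 14.3, 18.3 and 13.7 CPM with shRNA#1 and 19.4, 22.8 and 21.5 CPM with shRNA#3. The groups did not overlap, and every shRNA#3 library was higher than every shRNA#1 library. Its log2 fold change was 3.63 ± 0.265 in the pooled comparison (adjusted p = 7.75e-07), 3.38 ± 0.218 for shRNA#1 and 3.84 ± 0.218 for shRNA#3. The difference between the hairpins, 0.46 ± 0.173 on the log2 scale, was not called (adjusted p = 0.11). As a share of the counts of the gamma genes, PCDHGB7 went from 1.81% to 3.23% in control to 10.9% to 18.1% in knockdown.

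Directly before and after PCDHGB7 on the chromosome are PCDHGA10 and PCDHGA11, which start 4658 bases before and 3402 bases after its start and which also rose. PCDHGA10 was at 0.387, 0.348 and 0.621 CPM in control, 1.87, 2.19 and 1.93 CPM with shRNA#1 and 1.53, 1.87 and 2.72 CPM with shRNA#3 (pooled log2 fold change 2.14 ± 0.303, adjusted p = 0.00018). PCDHGA11 was at 0.533, 0.249 and 0.239 CPM in control, 0.748, 0.661 and 0.943 CPM with shRNA#1 and 1.29, 1.76 and 1.29 CPM with shRNA#3 (pooled log2 fold change 1.69 ± 0.433, adjusted p = 0.0104). The control counts of PCDHGA11 were 11, 5 and 5, and its pooled call was lost without control library B (1.5, adjusted p = 0.0585) or C (1.49, adjusted p = 0.0547). With shRNA#1 its log2 fold change was 1.20 ± 0.415 (adjusted p = 0.0366), and that call was lost without control library B or C, shRNA#1 library A or C, or shRNA#3 library B or C, at values of 0.99 to 1.23. With shRNA#3 it was 2.07 ± 0.395 (adjusted p = 0.00109). On the far sides, PCDHGB6 was not called (pooled log2 fold change -0.47 ± 0.254, adjusted p = 0.189) and PCDHGA12 did not reach the count rule, with 2 to 14 counts per library. The next row after PCDHGA11, the pseudogene PCDHGB8P, had 1, 0 and 0 counts in control, 6, 3 and 9 with shRNA#1 and 3, 12 and 6 with shRNA#3.

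Neighbouring promoters are shown for this run of 3 genes and for PCDHGB5, the abundant gamma gene that was not called. The sequences are RefSeq windows on GRCh38.p14 that run from 250 bases before to 50 bases after an annotated start on the plus strand, and 58 of the 66 members had one. For PCDHGA10 the window is chr5:141412737-141413036, for PCDHGB7 chr5:141417427-141417726, for PCDHGA11 chr5:141420801-141421100 and for PCDHGB5 chr5:141397697-141397996. Capitals mark every match of CGCT or of its reverse complement AGCG, wherever it lies in the window. CGCT is the core of the conserved element of clustered protocadherin promoters, but a match by itself does not locate that element.
PCDHGA10: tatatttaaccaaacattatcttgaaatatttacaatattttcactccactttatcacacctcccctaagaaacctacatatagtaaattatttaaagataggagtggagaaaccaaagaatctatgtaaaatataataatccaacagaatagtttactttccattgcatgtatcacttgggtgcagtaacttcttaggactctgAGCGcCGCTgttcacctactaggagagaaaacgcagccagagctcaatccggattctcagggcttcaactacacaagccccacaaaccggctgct
PCDHGB7: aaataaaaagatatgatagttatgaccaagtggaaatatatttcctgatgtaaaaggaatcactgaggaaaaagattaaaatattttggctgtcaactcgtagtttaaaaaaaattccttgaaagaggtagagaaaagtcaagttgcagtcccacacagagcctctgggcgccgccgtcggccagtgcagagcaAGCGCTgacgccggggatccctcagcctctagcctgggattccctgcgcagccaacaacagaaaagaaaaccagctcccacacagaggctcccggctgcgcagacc
PCDHGA11: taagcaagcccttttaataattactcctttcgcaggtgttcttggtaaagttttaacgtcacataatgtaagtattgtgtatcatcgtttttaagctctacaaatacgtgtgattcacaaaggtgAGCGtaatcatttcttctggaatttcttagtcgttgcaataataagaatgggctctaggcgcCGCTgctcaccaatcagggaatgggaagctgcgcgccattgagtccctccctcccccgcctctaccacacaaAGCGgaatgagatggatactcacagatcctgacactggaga
PCDHGB5: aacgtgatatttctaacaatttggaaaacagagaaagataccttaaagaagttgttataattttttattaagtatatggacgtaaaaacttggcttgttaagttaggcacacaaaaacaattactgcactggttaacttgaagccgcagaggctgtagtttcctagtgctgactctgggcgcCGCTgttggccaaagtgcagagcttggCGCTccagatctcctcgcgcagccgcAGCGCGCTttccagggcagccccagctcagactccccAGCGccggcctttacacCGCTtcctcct
CGCT on either strand was present in 20 of 20 gamma windows, 14 of 14 beta, 12 of 13 alpha and 10 of 11 non-clustered windows, beside 70.0% of the 35116 windows of all genes. A longer word, GCGCCGCTG on either strand, was chosen after seeing the windows and contains CGCT. It was present in 10 of 20 gamma windows, including those of PCDHGA10, PCDHGA11 and PCDHGB5 but not that of PCDHGB7, in 0 of the 14 beta and 0 of the 13 alpha windows, and in 1.28% of all windows. The CTCF core motif, searched as one exact 12-letter pattern with degenerate letters on either strand, was in 0 of 58 member windows and in 0.47% of all windows. Such matches describe letters in these windows and nothing about binding.

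PCDHGC4, a C-type gene known in mice for the survival of neurons, had 7, 2 and 1 counts in control, 12, 10 and 9 with shRNA#1 and 14, 16 and 21 with shRNA#3. The groups did not overlap, at 0.0478 to 0.339 CPM in control, 0.386 to 0.561 CPM with shRNA#1 and 0.824 to 0.967 CPM with shRNA#3. Its pooled log2 fold change was 2.03 ± 0.56 (adjusted p = 0.0151), which was 1.79 (adjusted p = 0.0784) without control library B and 1.60 (adjusted p = 0.0698) without C. With shRNA#1 it was 1.54 ± 0.568 (adjusted p = 0.0478), a call lost when any library except control library A was left out, at values of 1.11 to 1.68, and with shRNA#3 it was 2.42 ± 0.532 (adjusted p = 0.00299). PCDHGC5, the other C-type gamma gene, had 6 to 24 counts per library and was not called (0.67 ± 0.476, adjusted p = 0.313).

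PCDHGB1 was the called gamma gene that fell, from 1.16, 1.54 and 1.62 CPM in control to 0.467, 0.56 and 0.729 CPM with shRNA#1 and 0.53, 0.329 and 0.552 CPM with shRNA#3. The knockdown libraries were all lower than control (pooled log2 fold change -1.43 ± 0.283, adjusted p = 0.00209). PCDHGB5, the second most abundant gamma gene, was at 19.1, 18.5 and 18.4 CPM in control, 23.5, 20.6 and 18 CPM with shRNA#1 and 21.8, 19.4 and 20.1 CPM with shRNA#3. Its pooled log2 fold change of 0.14 ± 0.104 (adjusted p = 0.345) stayed under the threshold, and the shRNA#1 libraries overlapped control. The other tested gamma genes, PCDHGA1, PCDHGB2, PCDHGA5, PCDHGB3, PCDHGA6 and PCDHGA9, were not called in any comparison, with pooled log2 fold changes from -0.94 ± 0.508 (PCDHGA1) to 0.55 ± 0.372 (PCDHGA9).

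**Figure D3:**
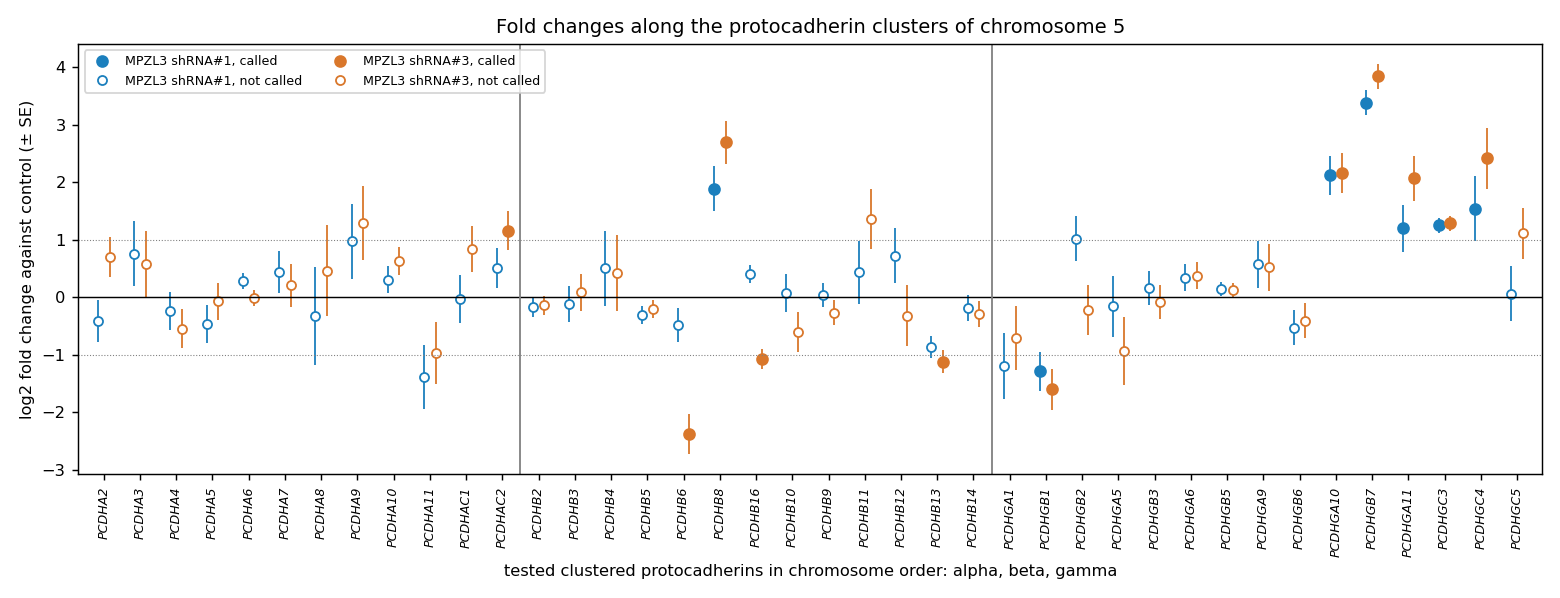
Log2 fold change against control with its SE for each tested clustered protocadherin in chromosome order (blue, shRNA#1 and orange, shRNA#3), with filled points for called genes, dotted lines at 1 and -1, and vertical lines between the alpha, beta and gamma clusters. PCDHGA10, PCDHGB7 and PCDHGA11 stand next to each other above the upper line with both hairpins, and PCDHB6 and PCDHB16 are lower with shRNA#3 and not called with shRNA#1.

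The summed level of the gamma genes was 57.7 to 64.6 CPM in control, 101 to 132 CPM with shRNA#1 and 122 to 132 CPM with shRNA#3. Without PCDHGC3 the sums were 31.8 to 34.8, 45.4 to 55.4 and 56.5 to 57.9 CPM, so that the groups stayed apart without it. These sums still hold PCDHGB7, at 1.05 to 2.08 CPM in control, 13.7 to 18.3 CPM with shRNA#1 and 19.4 to 22.8 CPM with shRNA#3. Sums without both genes were not computed, so a rise over the rest of the cluster is not shown.

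Among the beta genes, which lack constant exons, the pooled comparison called 1 gene, and the only calls between the hairpins were beta genes. PCDHB8 (ENSG00000120322, chromosome 5, 141177790 to 141180529) was at 0.484, 0.647 and 0.335 CPM in control, 1.31, 2.65 and 1.54 CPM with shRNA#1 and 4.18, 2.63 and 2.76 CPM with shRNA#3. Both hairpins were above control, and they overlapped each other. The log2 fold change was 2.34 ± 0.422 in the pooled comparison (adjusted p = 0.00111), 1.89 ± 0.387 for shRNA#1 (adjusted p = 0.00169) and 2.69 ± 0.375 for shRNA#3 (adjusted p = 8.51e-05).

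PCDHB16 (ENSG00000272674, chromosome 5, 141181399 to 141186399), which starts just past the end of PCDHB8, was at 8.47, 8.96 and 7.6 CPM in control, 9.81, 11.7 and 11.7 CPM with shRNA#1 and 4.3, 3.18 and 4.37 CPM with shRNA#3. The shRNA#1 libraries were all above control and the shRNA#3 libraries all below it. Between the hairpins the log2 difference was -1.48 ± 0.168 (adjusted p = 9.66e-05), and against control it was 0.41 ± 0.157 for shRNA#1 (adjusted p = 0.057) and -1.08 ± 0.169 for shRNA#3 (adjusted p = 0.000235). Without shRNA#3 library B, the last value was -0.95 (adjusted p = 0.00195), under the 2-fold threshold. Of its exons, 1247 bases overlap other annotated genes, and in the annotation of the count table the PCDHB10 gene body overlaps it by 3840 bases, so reads in this stretch are uncertain.

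PCDHB6 (ENSG00000113211, chromosome 5, 141150022 to 141153287) was at 2.42, 3.43 and 3.58 CPM in control, 1.4, 2.8 and 2.57 CPM with shRNA#1 and 0.647, 0.768 and 0.414 CPM with shRNA#3. Only the shRNA#3 libraries stood apart from control. The log2 fold change was -2.38 ± 0.353 for shRNA#3 (adjusted p = 0.000148) and -0.48 ± 0.297 for shRNA#1 (adjusted p = 0.231), and the difference of the hairpins was -1.90 ± 0.36 (adjusted p = 0.004). In the pooled comparison it was not called at -1.12 ± 0.493 (adjusted p = 0.105), but it was without shRNA#1 library B (-1.41, adjusted p = 0.0421).

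PCDHB13 was at 6.97, 6.72 and 7.02 CPM in control, 4.35, 3.82 and 3.26 CPM with shRNA#1 and 3.77, 2.52 and 3.27 CPM with shRNA#3. All knockdown libraries were below control. It was called with shRNA#3 (log2 fold change -1.12 ± 0.192, adjusted p = 0.000484), and its pooled value of -0.98 ± 0.172 (adjusted p = 0.000929) was just under the 2-fold threshold. Without shRNA#3 library B the value for shRNA#3 was -0.98 (adjusted p = 0.00376), and without shRNA#1 library A the pooled value was -1.06 (adjusted p = 0.000694).

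The most abundant beta genes moved little. PCDHB2 was at 14.2, 17.8 and 16.3 CPM in control, 11.5, 18.4 and 13 CPM with shRNA#1 and 13.9, 14.3 and 15.6 CPM with shRNA#3, and its pooled log2 fold change of -0.16 ± 0.147 (adjusted p = 0.46) was not called. PCDHB5 was at 11.8, 11.6 and 12.2 CPM in control, 8.74, 11.3 and 8.79 CPM with shRNA#1 and 11.2, 8.34 and 11.2 CPM with shRNA#3 (-0.26 ± 0.138, adjusted p = 0.185). For PCDHB2 the groups overlapped, and for PCDHB5 every knockdown library was below every control library by less than the threshold. The other tested beta genes, PCDHB3, PCDHB4, PCDHB9, PCDHB10, PCDHB11, PCDHB12 and PCDHB14, were not called in any comparison, with pooled log2 fold changes from -0.24 ± 0.192 (PCDHB14) to 0.96 ± 0.545 (PCDHB11). Summed over the class, beta genes were at 56.5 to 64.6 CPM in control, 47.8 to 68.4 CPM with shRNA#1 and 45.6 to 50.6 CPM with shRNA#3.

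**Figure D4:**
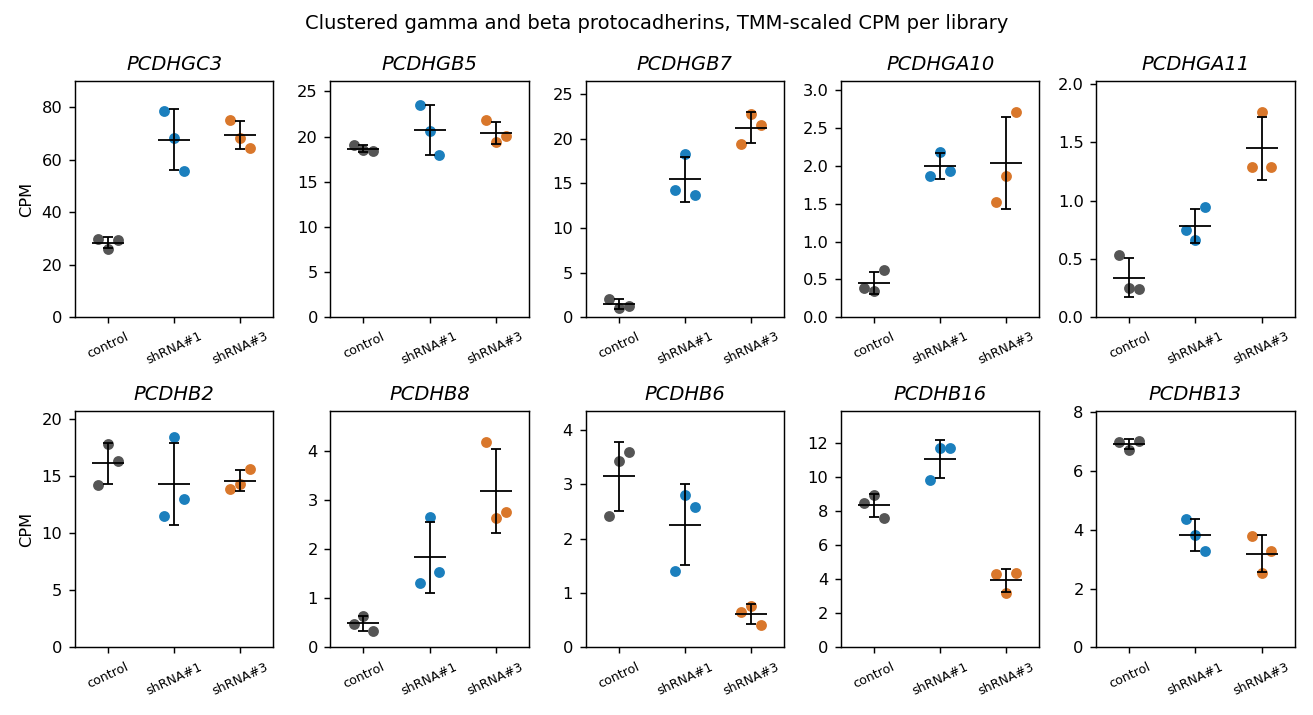
CPM of 10 clustered protocadherins in each library (points, replicates A, B and C from left to right), with the mean and SD of each group of 3 in black and every axis starting at 0. PCDHB2 overlaps between groups, and PCDHGB5 overlaps control with shRNA#1 and lies slightly above it with shRNA#3. PCDHGC3, PCDHGB7, PCDHGA10, PCDHGA11 and PCDHB8 are higher in all knockdown libraries, and PCDHB16 is above control with shRNA#1 and below it with shRNA#3.

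The promoter windows of PCDHB8 (chr5:141177540-141177839) and PCDHB16 (chr5:141182137-141182436), neighbours that moved in opposite directions with shRNA#3, are shown with the word TGGCGCT in capitals. This word, which was chosen after seeing the windows and contains CGCT, was found on either strand in 13 of 14 beta windows, in 3 of 20 gamma, 0 of 13 alpha and 1 of 11 non-clustered windows, and in 4.08% of all windows. The window of PCDHB16 belongs to a start 988 bases from the gene start in GENCODE 29.
PCDHB8: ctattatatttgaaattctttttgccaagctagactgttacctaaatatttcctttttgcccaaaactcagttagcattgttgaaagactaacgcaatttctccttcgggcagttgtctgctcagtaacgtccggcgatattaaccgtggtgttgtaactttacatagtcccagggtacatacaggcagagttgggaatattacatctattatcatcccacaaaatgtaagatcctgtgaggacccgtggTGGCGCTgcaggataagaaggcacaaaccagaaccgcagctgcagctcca
PCDHB16: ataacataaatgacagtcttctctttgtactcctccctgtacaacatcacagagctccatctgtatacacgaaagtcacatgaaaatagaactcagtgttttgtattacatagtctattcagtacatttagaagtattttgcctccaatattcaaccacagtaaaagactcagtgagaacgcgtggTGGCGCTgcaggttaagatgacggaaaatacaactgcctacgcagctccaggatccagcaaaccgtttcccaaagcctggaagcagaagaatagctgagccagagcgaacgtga
Both hold the word once, as do the windows of PCDHB13, which fell with shRNA#3, and of PCDHB2 and PCDHB5, which were not called.

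By edgeR the 12 tested alpha genes gave 0 calls in the pooled comparison and 0 with shRNA#1, with 2 and 1 genes at an unadjusted p under 0.05 and 0 and 0 calls by DESeq2, and 1 call with shRNA#3. PCDHAC2, the last C-type gene of the cluster, which guides the spacing of serotonergic axons in mice, was at 1.99, 1.99 and 0.812 CPM in control, 2.76, 2.24 and 1.8 CPM with shRNA#1 and 4.83, 3.29 and 2.62 CPM with shRNA#3. The shRNA#3 libraries were all above control, while shRNA#1 overlapped it. The log2 fold change was 1.16 ± 0.342 for shRNA#3 (adjusted p = 0.0179) and 0.50 ± 0.349 for shRNA#1 (adjusted p = 0.286), and the difference between the hairpins was not called (0.65 ± 0.329, adjusted p = 0.246). Without control library C the value for shRNA#3 was 0.83 (adjusted p = 0.0646), and without shRNA#3 library A it was 0.88 (adjusted p = 0.0788).

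PCDHA6, the most abundant alpha gene, was at 9.3, 8.36 and 10.4 CPM in control, 12.3, 11.2 and 10.7 CPM with shRNA#1 and 9.06, 9.99 and 8.79 CPM with shRNA#3 (pooled log2 fold change 0.15 ± 0.142, adjusted p = 0.469). PCDHA10 was at 7.41, 4.38 and 5.21 CPM in control, 5.23, 9.72 and 6.17 CPM with shRNA#1 and 8.41, 8.28 and 9.57 CPM with shRNA#3 (0.48 ± 0.234, adjusted p = 0.144). For PCDHA10 the shRNA#3 libraries were the highest with the exception of shRNA#1 library B. The other tested alpha genes, PCDHA2, PCDHA3, PCDHA4, PCDHA5, PCDHA7, PCDHA8, PCDHA9, PCDHA11 and PCDHAC1, ranged from -1.16 ± 0.472 (PCDHA11, adjusted p = 0.0811) to 1.14 ± 0.604 (PCDHA9, adjusted p = 0.176) in the pooled comparison. As in the gamma cluster, the alpha genes share between 2866 and 5669 exonic bases with other genes. Their summed level was 23 to 26.5 CPM in control, 25 to 33.3 CPM with shRNA#1 and 30.2 to 31.1 CPM with shRNA#3.

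Set beside each other, 7 of 40 tested clustered genes (17.5%) and 4 of 6 tested non-clustered genes (66.7%) were called in the pooled comparison, beside 14.7% of all genes tested, so the clustered share was near that of all genes. With shRNA#3 the counts were 11 of 40 (27.5%) and 4 of 6, beside 15.3% of all genes. Restricted to genes averaging at least 1 CPM over all 9 libraries, the pooled counts were 4 of 24 and 4 of 5. With shRNA#3 they were 8 of 24 and 4 of 5. Of the 4 clustered pooled calls, PCDHGA10 and PCDHB8 were at 0.452 and 0.489 CPM in control and reached that mean through the knockdown groups. The share of all genes called at this cut was not computed. In the pooled comparison the median log2 fold change was 0.193 over the tested clustered genes, 0.678 over the tested non-clustered genes and 0.005 over all genes tested. The median absolute value was 0.473 for clustered and 1.55 for non-clustered genes. As members are not replicates and 6 non-clustered genes were tested, no test of this difference was run. Summed over all 53 clustered genes, the level was 145 to 148 CPM in control, 182 to 226 CPM with shRNA#1 and 203 to 211 CPM with shRNA#3, while the non-clustered sum, which followed PCDH1, moved the other way. Without PCDH1 the non-clustered sum rose too, from 14.9 to 16.6 CPM in control to 24.6 to 26.8 CPM with shRNA#1 and 25.5 to 33.3 CPM with shRNA#3.

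**Figure D5:**
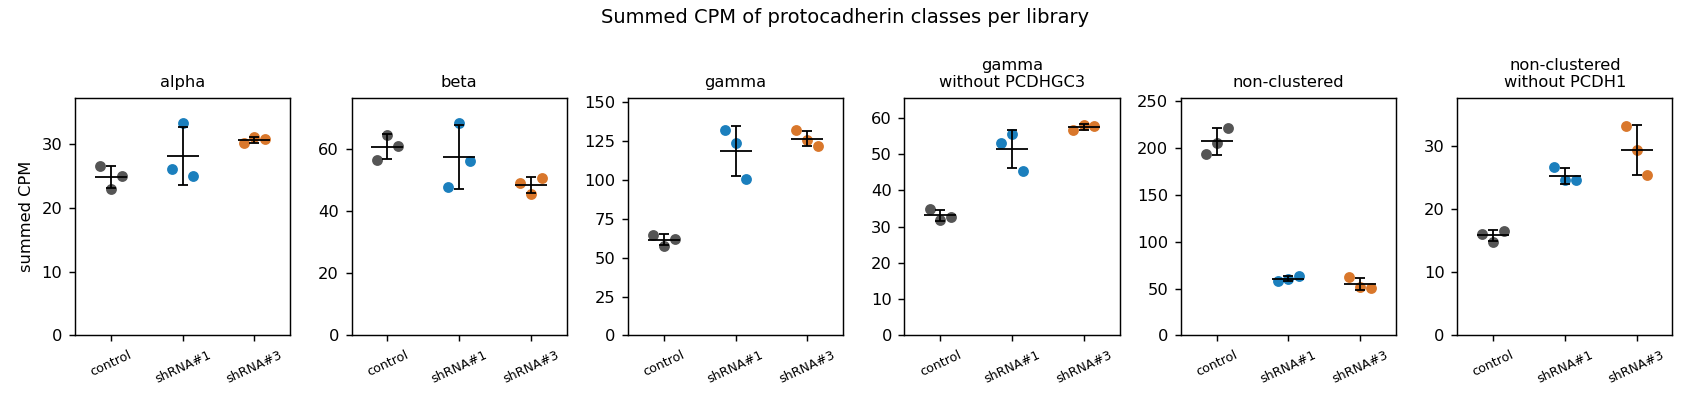
Summed CPM of each protocadherin class in each library (points, replicates A, B and C from left to right), with the mean and SD of each group of 3 in black and every axis starting at 0, and with the most abundant gene left out for the gamma and non-clustered classes. The gamma sum is 57.7 to 64.6 CPM in control and 101 to 132 CPM in knockdown, and the non-clustered sum without PCDH1 is higher in knockdown while the full sum is lower.

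Genes around the clusters were examined to see whether the region moved as a whole. The clusters span 726.8 kb (chromosome 5, 140786136 to 141512981), and within 2 Mb of either end lie 56 other protein-coding genes, of which 41 were tested and 4 were called in the pooled comparison (9.76%, beside the 14.7% of all genes). Of the 4, 2 were called higher and 2 lower, and values are given for 3. HBEGF, a ligand of the EGF receptor, fell from 30.7 ± 2.64 CPM in control to 6.11 ± 1.6 with shRNA#1 and 8.95 ± 1.07 with shRNA#3 (SD, n = 3 each). FGF1, a fibroblast growth factor, rose from 5.05 ± 0.411 to 10.2 ± 3.15 and 15 ± 1.45 CPM, and NR3C1, the glucocorticoid receptor, from 86.5 ± 7.93 to 193 ± 43.7 and 164 ± 10.8 CPM. The median log2 fold change of the 41 was -0.126. Over the 707 tested genes of the whole chromosome, the median was -0.001 in the pooled comparison, 0.076 for shRNA#1 and -0.14 for shRNA#3. Between shRNA#3 and shRNA#1 the median log2 difference was -0.191 over these 707 genes and -0.157 over the 41 neighbours. Of the 707, 39 were called lower with shRNA#3 and 9 higher (6.79%, beside 3.93% of all genes). The part of this shift in the values of PCDHB6 and PCDHB16 was not tested.

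Genes that act on or with protocadherins were taken from lists. Of 19 regulators of clustered promoters, including CTCF, the cohesin subunits RAD21, SMC1A and SMC3, the repressor SMCHD1 and DNA methyltransferases, 19 were tested and edgeR called 0 in the pooled comparison or with either hairpin, with pooled log2 fold changes from -0.43 to 0.60 and a median of 0.147. At an unadjusted p under 0.05 there were 4, 9 and 4 of these genes in the pooled, shRNA#1 and shRNA#3 comparisons, and DESeq2 called 0 in each. Some passed the adjusted p and missed only the 2-fold threshold. Examples are PDS5B, at 0.60 in the pooled comparison (adjusted p = 0.00895) and 0.75 with shRNA#1 (adjusted p = 0.000558), and REST, at 0.46 with shRNA#3 (adjusted p = 0.00457). With shRNA#1 the log2 fold changes of the list ran from -0.721 to 0.753. Of 11 genes of the WAVE regulatory complex, 10 were tested and 0 were called in the pooled comparison (4 at an unadjusted p under 0.05 and 0 by DESeq2), 3 with shRNA#1 (30%, 1 higher and 2 lower) and 2 with shRNA#3 (20%, both higher), beside 16.3% and 15.3% of all genes. Of the 4 listed kinases and phosphatase that bind protocadherin tails, PTK2B, a focal adhesion kinase relative, was called lower (68.4 CPM in control, 19.5 with shRNA#1 and 20 with shRNA#3, pooled log2 fold change -1.79, adjusted p = 0.000136). Of 14 other non-classical cadherins, 12 were tested and FAT4, a giant cadherin of the Hippo and planar polarity pathways, was called higher (29.4 CPM in control, 60.6 with shRNA#1 and 77 with shRNA#3, pooled log2 fold change 1.23, adjusted p = 0.000396). That was 8.33% of the 12, under the 14.7% of all genes. With shRNA#1, 2 of these 12 were called (16.7%, 1 higher and 1 lower), near the 16.3% of all genes, and with shRNA#3, 3 (25%, all higher), beside 15.3%. FAT2 was called lower with shRNA#1 and higher with shRNA#3.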

How the data were processed

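The deposited values were raw read counts per gene made by the authors, without normalization, from reads of unstranded poly(A) libraries, in 9 libraries of 16850854 to 23890191 counts. The submitters' processing notes name HISAT2 2.0.5, featureCounts 1.5.0-p3 and hg38, and how reads matching several genes were counted is not given in the sources used here. No sample was left out.

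Counts were filtered with filterByExpr (minimum count 10, minimum total 15), scaled by TMM and tested with edgeR 4.0.16 (glmQLFTest, R 4.3.3), adjusting p over 15975 genes by Benjamini-Hochberg. Calls needed an adjusted p under 0.05 and a log2 fold change of 1 or more in size. The pooled comparison put both hairpins into 1 arm, and the others used 1 model of 3 groups. Standard errors follow from each fold change divided by the root of F. The members and gene lists were chosen with earlier results of these data known, so no list was given a p-value. Named were MPZL3, every member with at least 10 counts in 3 libraries (with full statistics for those called in any comparison and the 2 most abundant of each class), genes of related lists called in the pooled comparison (at most 4 per list) and called neighbours, of which 1 is not reported here. PCDH11X, PCDHGB8P, FAT2, the marker genes and the examples of promoter regulators were named outside this rule. 11 further PCDH rows were not protein-coding.

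Exon lengths came from GENCODE 29, in which 65 of 66 members had the same position, and promoter windows from RefSeq. PCDHA3, PCDHA13, PCDHB6, PCDHB11, PCDHGA12, PCDHGC5, PCDH20 and PCDH10 were not matched to a window. Protein sequences were not analysed here. Alternatives were other filters, scalings and thresholds, DESeq2 1.42.0, a replicate block, other groupings of the fit and each library left out in turn. In simulated counts of the pooled comparison (15614 genes), 94.0% of 100 genes changed by 2 on the log2 scale were recovered and 83.0% of 100 changed by 1.5. The simulation gave both hairpins the same change and drew the changed genes from all genes that passed the filter. Recovery among the protocadherins, or where the hairpins differ, was not tested. Precision covers counting error and the spread between these libraries, and reads amplified by PCR are not independent molecules.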

Additional observations from a re-analysis of the deposited data

Results flagged for a closer look

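The effect of knockdown differed between the hairpins for a pair of beta genes, which were 4.35% of the 46 tested members, beside 3.93% of all genes. The tested genes of chromosome 5, on which both lie, had a median log2 difference of -0.191 between shRNA#3 and shRNA#1. The part of this shift in the values of the pair was not tested. PCDHB6 was lower with shRNA#3 than with shRNA#1 by a log2 difference of -1.90 (adjusted p = 0.004, edgeR's quasi-likelihood test), in 3 of 3 libraries against 3 of 3. PCDHB16 was lower by -1.48 (adjusted p = 9.66e-05), with shRNA#1 above and shRNA#3 below every control library. Outside the protein-coding members, the pseudogene PCDHGB8P had a mean of 0.322 CPM in knockdown, above each control library in 6 of 6 knockdown libraries, and it was not tested because its counts were low (0 to 1 in control, 3 to 12 in knockdown). It lies next to PCDHGA11 in the gamma cluster.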

How the results depend on the processing

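Members called numbered 11 in the pooled comparison, 11 with shRNA#1, 15 with shRNA#3 and 2 between the hairpins, each under 20 alternatives. Putting the 2-fold threshold inside the test (edgeR's glmTreat) gave 5, 6, 8 and 0 calls in that order (12 members had an unadjusted p under 0.05 between the hairpins in edgeR's quasi-likelihood test), and dropping the fold threshold gave 4 between the hairpins. Under that stricter test the pooled calls of PCDHGB1, PCDHGA11, PCDHGC3, PCDHGC4, PCDH9 and PCDH7 were lost (PCDHGC3 with adjusted p = 0.0519), as were those of PCDHB6 (adjusted p = 0.195) and PCDHB16 (adjusted p = 0.0915) between the hairpins. All other alternatives kept each count within 1.5 times. Leaving out each library in turn gave 10 to 13, 9 to 13, 13 to 17 and 2 to 2. DESeq2 gave 11, 10, 16 and 2. Same-letter libraries had correlated deviations of 0.0515 to 0.466, highest between the A libraries (0.401 to 0.466), and 7 of 9 pairs exceeded 0.1. The rule set beforehand needed every pair to exceed it, so the letters were not taken to pair the libraries. An effect shared by libraries of 1 letter is therefore not modelled in the main p-values. The replicate block, which models it, gave 12, 13, 17 and 3 calls. Of 1667 values of single genes under alternatives, 1604 kept their side of the threshold, 53 lost a call, 10 gained one and 0 of the called values reversed. Of the 1604, 14 uncalled values, from 6 results of at most 0.146 in size on the log2 scale, changed sign. The calls of PCDHGA11 and PCDHGC4 with shRNA#1, at 1.20 (adjusted p = 0.0366) and 1.54 (adjusted p = 0.0478), were also lost with no filter on low counts (adjusted p = 0.0586 and 0.0671). PCDHB6 was called in the pooled comparison by the 3-group model (-1.43, adjusted p = 0.00084). By full exonic length, the 10 highest members per kilobase in control were the same 10, while PCDHGC3 went from 8.74 to 5.23 and PCDHGB5 from 6.99 to 3.85 CPM per kilobase. Members near 10 counts are limited by depth, and shared exons limit the alpha and gamma values. The causes of the lost calls were not tested.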
